A study of Arabidopsis thaliana with 4 samples.

Results

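This comparison set the emf2 mutant that carries 35S::BoEMF2.1, named rescued emf2, against the wild type that carries the same construct, named transWT. All probe sets that are not array controls were members: 22746 of the 22810 on the array, read on 2 of the study's 4 arrays. Both groups were whole Arabidopsis seedlings of 7 days, kept under short days (8 h light, 16 h dark) at 21 °C on 0.8% agar with Murashige and Skoog salts and 1.5% sucrose. Both grew on hygromycin, which the labels give at 20 mg/mL. The labelled difference between them is therefore the emf2 background. The other 2 arrays, of Columbia wild type (WT) and of emf2, had neither transgene nor hygromycin and served as the same difference of background without them. The ecotype is given for WT alone, and neither the emf2 allele nor the number of transgenic lines or pooled plants is given in the labels. The 35S promoter is known to be active in most plant tissues, and the expression of the transgene was not measured here.

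EMF2 is the plant relative of the Drosophila protein Su(z)12 and a subunit of a Polycomb repressive complex, which places a repressive methyl mark on histone H3. In seedlings this complex keeps floral organ genes and other developmental regulators silent, and emf2 mutants flower early with little or no rosette. BoEMF2.1 takes its name from the Brassica oleracea counterpart of EMF2. Rescued emf2 against transWT asked how far the mutant and the wild type still differed once both carried the construct.

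Each group was measured on 1 array, so the differences below carry neither a p-value nor a check by replicates, and they include any variation between plantings. Signals are linear brightness values in arbitrary units, scaled to one trimmed mean per array. A probe set was tested where at least 1 of the compared arrays lay above a floor of 87.6, and it was counted as higher or lower from a 2-fold ratio on. Where the dimmer array lay below the floor, the ratio is only a bound, marked by the words at least. For 45 genes read by more than 1 probe set, the disagreement of their probe sets gave a probe error of 0.35 (SD) for a log2 ratio of rescued emf2 over transWT. This value holds no variation between plants or plantings. Relative to transWT, 18 hybridization controls had a median of 1.07-fold on the rescued emf2 array. Bacterial poly-A controls had a median of 1.64-fold over 7 probe sets, all 7 above 1, against 1.05-fold in emf2 over WT. The part of these differences in the results was not tested. The leaf marker RCA (12238 to 25436) and the root marker PYK10 (15178 to 17946) were bright on all 4 arrays. The Polycomb genes, EMF2 among them, and the floral targets AG, AP3, PI, SEP3, FT and FLC have no probe set named here, so the genotypes were not checked by EMF2 signal and these genes were not analysed here.

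Rescued emf2 and transWT were close to each other over most of the transcriptome. Of 14250 probe sets tested, 322 (2.26%) were higher in rescued emf2 by at least 2-fold and 426 (2.99%) at least 2-fold lower, 5.25% in all. At least 4-fold differences were fewer, with 30 higher and 26 lower. The other 8496 probe sets lay below the floor on both arrays. The median log2 ratio was -0.03, and 79.9% of tested probe sets lay within 1.5-fold. In emf2 over WT, without the transgene, 7.34% of 14653 tested were higher and 11.1% lower, 18.5% in all, and 60.6% lay within 1.5-fold. Lower probe sets made up 57.0% of those called in rescued emf2 over transWT. That split depended on the scaling, since with each array scaled to its median the counts were 427 higher and 328 lower, or 43.4% lower. Calls of dim genes depended on the floor. This was checked on 62 called genes picked for the text by rule, which are not a sample of all called genes. Of these 62, 27 lost the call with a higher floor (the 60th percentile of the signals in place of the 40th). Where both arrays had to be above the floor, 17 lost it. Among 7585 named genes tested, 165 were higher (2.18%) and 238 lower (3.14%).

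**Figure D1:**
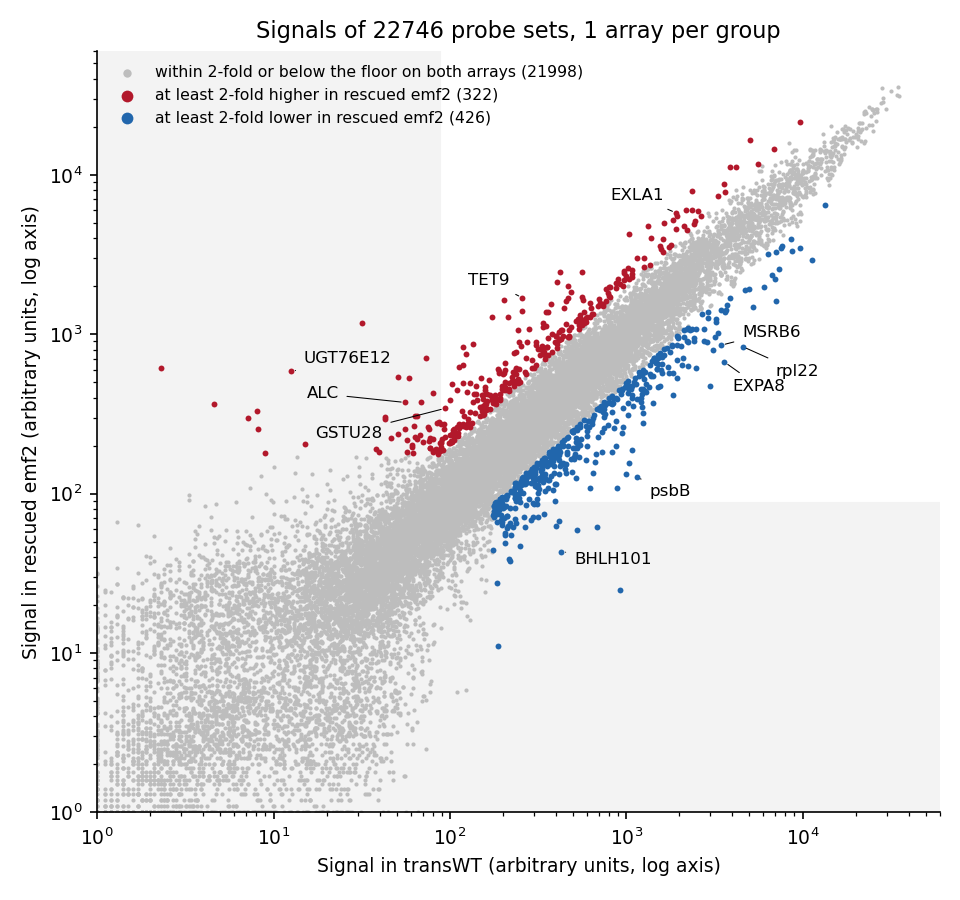
Signal of each of 22746 probe sets on the transWT array (x axis) and the rescued emf2 array (y axis), both in arbitrary units on log axes, with values under 1 drawn at 1. Grey bands lie below the floor of 87.6, red points are the 322 probe sets at least 2-fold higher in rescued emf2, blue points the 426 lower ones, and most probe sets follow the diagonal.

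The list with the most lower transcripts was the plastid genome. Plastids keep a small genome of their own for parts of the photosystems, the ATP synthase, the ribosome and an RNA polymerase, while most chloroplast proteins are encoded in the nucleus. Of 69 named plastid-encoded genes, 66 were tested: 26 were at least 2-fold lower in rescued emf2 than in transWT and 0 were higher, beside 3.14% lower over all named genes. Their median log2 ratio was -0.76 (named nuclear genes, -0.01), and 63 of the 66 ratios lay below 0. The exceptions were petL (0.27), clpP (0.25) and psbM (0.21). Plastid genes named here other than psbB, psbT, ndhH, ndhE, rpl22 and rpoC2 were chosen after their values were seen. In emf2 over WT, 47 of 64 tested plastid genes were at least 2-fold lower, beside 10.7% over all named genes in that pair. Their median there was -1.78. Under the 9 other settings, which tested 60 to 69 plastid genes, the median in rescued emf2 over transWT lay between -0.86 and -0.63, with 19 to 28 genes lower and at most 1 higher. Kept to the same 66 genes, its highest value was -0.58, at the higher floor. Whole seedlings were used, and fewer green cells and less plastid RNA per cell cannot be told apart in them. The part of RNA labelling was not tested either. Bacterial poly-A controls had a median of 1.64-fold on the rescued emf2 array relative to transWT.

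Among the photosystem II genes psbB, which encodes a core antenna protein, read 1145 in transWT and 127 in rescued emf2, 9.03-fold lower. Its signals without the transgene were almost the same, 1003 in WT and 125 in emf2, so both mutant arrays stood equally low. psbB heads a transcription unit with psbT, psbH and petB. psbT, a small photosystem II subunit, was at least 6.01-fold lower, from 527 in transWT to 58.9 in rescued emf2. Further along the unit psbH was 2.16-fold lower (log2 -1.11), and petB, of the cytochrome b6f complex, lay within 2-fold (-0.48). The reaction centre genes psbA and psbD were 2.82-fold and 3.32-fold lower. Over the class, 5 of 15 photosystem II genes were lower and the median was -0.54.

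Of photosystem I and its assembly factors, 4 of 7 genes were lower, with a median of -1.13. psaA, for a reaction centre protein, and psaC, for an iron-sulfur subunit, were 2.63-fold and 3.58-fold lower, while psaB, for the partner of psaA, lay within 2-fold at -0.37. The ribosomal protein genes had the lowest class median, -1.15, with 7 of 14 lower. rpl22, for a large-subunit protein, read 9792 in WT, 1060 in emf2, 4569 in transWT and 836 in rescued emf2, and was 5.46-fold lower than in transWT. rpl36, rps3 and rps19 of the same cluster were 3.83-fold, 3.13-fold and 2.47-fold lower, while rpl16, 14.4-fold lower in emf2 than in WT, lay within 2-fold (-0.69). The chloroplast NDH complex, which returns electrons to the plastoquinone pool, had 3 of 9 genes lower and a median of -0.70. ndhH read 625 in transWT and 109 in rescued emf2, 5.75-fold lower, and ndhE 946 and 240, 3.94-fold lower.

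Of 4 genes of the plastid RNA polymerase 2 were lower. rpoC2, for one of its large subunits, read 832 in transWT and 183 in rescued emf2, 4.54-fold lower, and rpoC1 2080 and 643, 3.24-fold lower. Of 6 ATP synthase genes 2 were lower, with a median of -0.74. Among the other plastid genes rbcL, which encodes the large subunit of Rubisco, read 1020 and 370, 2.76-fold lower. Brighter plastid genes differed less. The 25 with a mean signal of at least 4000 over the 4 arrays had a median of -0.48, with 3 lower, and the 41 below it a median of -1.31, with 23 lower. That mean includes the arrays compared, so a lower signal in the mutants itself moves a gene toward the dimmer group.

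**Figure D2:**
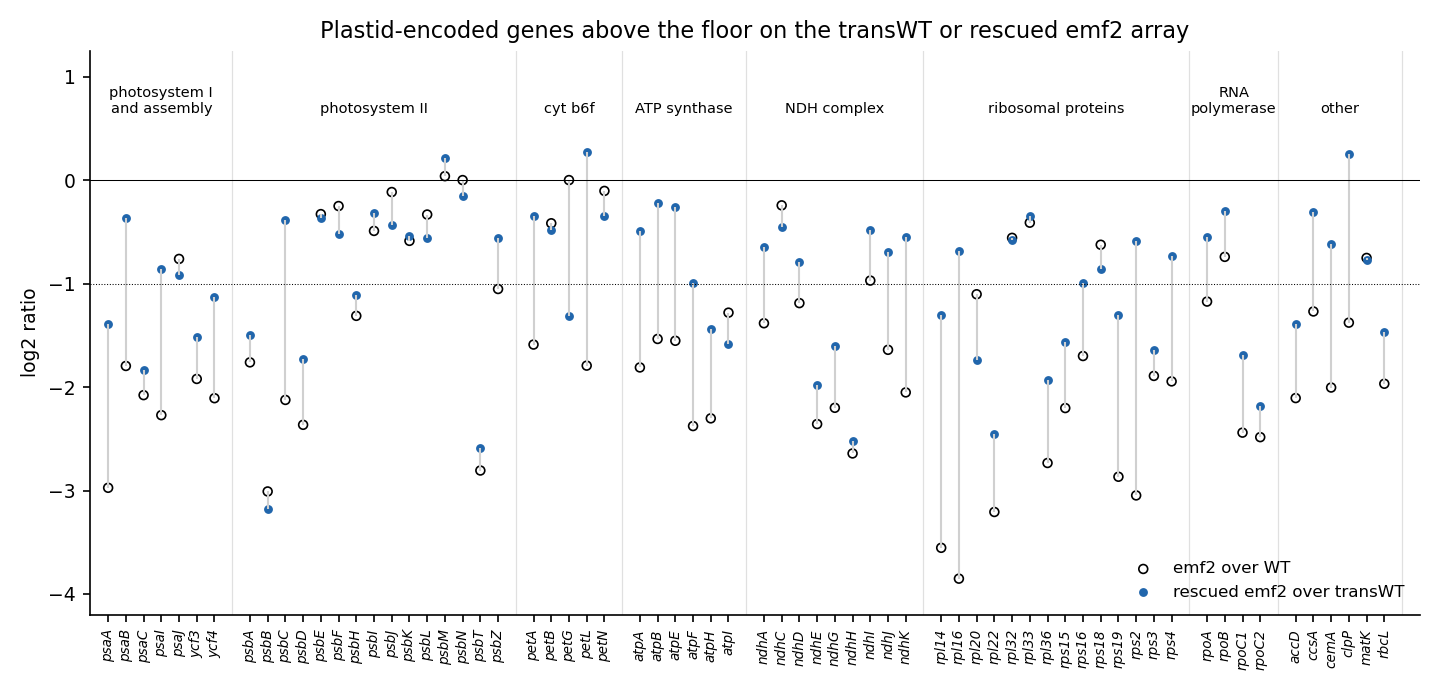
Log2 ratio of each of the 66 plastid-encoded genes tested, grouped by complex, for rescued emf2 over transWT (filled blue points) and emf2 over WT (open circles), with a dotted line at 2-fold lower. All but petL, clpP and psbM lie below 0 in rescued emf2 over transWT, and psbB, psbT and ndhH stand about as low there as in emf2 over WT. For petG and psbN, WT and emf2 both lay below the floor, so their open circles at 0 are not measured ratios. Bounds are drawn like other ratios.

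Nuclear genes for photosynthesis lay mostly within 2-fold. Of 7 nuclear photosystem and antenna genes 1 was lower and 0 higher, beside 3.14% lower over all named genes. Their median was 0.00, though its sign changed with the scaling (-0.13 to 0.10). LHCB4.1 and LHCB4.2, minor antenna proteins of photosystem II, stood at log2 ratios of 0.16 and 0.01. The lower one was their relative LHCB4.3, which read 347 in WT, 346 in emf2, 1641 in transWT and 735 in rescued emf2. It was 2.23-fold lower in rescued emf2 than in transWT and equal in emf2 and WT (log2 0.00). RCA, the Rubisco activase, read 25436 in transWT and 24480 in rescued emf2 (-0.06). PRK, the Calvin cycle enzyme that makes ribulose bisphosphate, read 11755 and 7682 (-0.61), against -1.39 in emf2 over WT. The 3 genes for the Calvin cycle and Rubisco activation all lay below 0 and within 2-fold (median -0.41). None of 8 tested chlorophyll synthesis genes passed 2-fold (median -0.12), with CHLM, a methyltransferase of the pathway, at 0.05. PORB, the light-dependent protochlorophyllide reductase, was at 0.27. In emf2 over WT the chlorophyll list had a median of -0.81 and 3 of 8 lower, beside 10.7% over all named genes in that pair. None of 6 mitochondrion-encoded genes passed 2-fold in rescued emf2 over transWT, with nad4, a complex I subunit, at -0.51.

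In the flowering, MADS-box, carpel and leaf polarity lists, the named genes past 2-fold in the transgenic pair were ALC, higher, and AGL87, SMZ and YAB5, lower. These 4 stood on the same side in emf2 over WT. The lists do not cover the 8794 of 22810 probe sets with no gene listed here, so any regulators among those are missing. At the higher floor the calls of ALC, SMZ and YAB5 in the transgenic pair were lost, and that of ALC also where both arrays had to be above the floor. ALC, a bHLH factor for the opening of the fruit, read 55.9 in transWT and 373 in rescued emf2, against 65.0 in WT and 461 in emf2. Both wild-type arrays lay below the floor, so the bounds were at least 4.26-fold higher for rescued emf2 and at least 5.27-fold higher for emf2. SPT, a bHLH relative of ALC in carpel growth chosen after its values were seen, read 90.3 and 170 (log2 0.92). This was also the median of its list, which ranged from 0.00 at the higher floor to 1.06 with quantile normalization. In all 1 of 3 tested genes of the carpel, fruit and ovule list was higher and 0 lower, beside 2.18% higher over all named genes. ULT1, a trithorax-group regulator of floral meristem size, read 150 in WT, 428 in emf2, 188 in transWT and 336 in rescued emf2, a log2 ratio of 0.84 in the transgenic pair. None of the 4 tested trithorax and remodelling genes passed 2-fold, and ETL1, a chromatin remodeller, was at 0.42 in both pairs.

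Of 42 named genes of the MADS-box list, 37 lay below the floor on both arrays. AGL87, a MADS-box gene, read 717 in WT, 110 in emf2, 727 in transWT and 354 in rescued emf2. It was 2.05-fold lower in rescued emf2, a call that was lost with median scaling and cyclic loess. In all 1 of 5 tested genes of the list was lower, beside 3.14% over all named genes. SMZ, which represses flowering and belongs to the AP2 family, read 409, 145, 414 and 188 in the same order and was 2.21-fold lower in rescued emf2. It was the lower 1 of 6 tested flowering-time genes, with 0 higher, and none was left at the higher floor. AGL42, a MADS-box gene chosen after its values were seen, was below the floor in WT (9.70) and transWT (3.30) and just above it in emf2 (129) and rescued emf2 (98.7). Its bound in the transgenic pair was at least 1.13-fold.

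YAB5, a YABBY factor that marks the lower side of leaves, read 649 in WT, 21.1 in emf2, 448 in transWT and 142 in rescued emf2. It was 3.15-fold lower in rescued emf2 than in transWT, but not at the higher floor. YAB5 was the 1 lower gene of 5 tested for shoot meristem and leaf polarity, beside 3.14% over all named genes. STOMAGEN, a peptide that raises stomatal density and chosen after its values were seen, read 830 in transWT and 419 in rescued emf2 (log2 -0.98), against 985 in WT and 236 in emf2. PHV, a homeodomain factor of the upper leaf side, was at -0.09. RR16, a cytokinin response regulator, read 235 and 98.1, 2.39-fold lower, with 285 in WT and 130 in emf2, a call lost at the higher floor. None of 6 tested auxin response genes and none of 3 gibberellin genes passed 2-fold, beside 2.18% higher and 3.14% lower over all named genes. HYH, a bZIP factor related to HY5 in light signalling, was 2.07-fold lower (460 and 222), and its call was lost under quantile, median and cyclic loess scaling and at the higher floor. BZIP61, another bZIP gene, read 729 in transWT and 183 in rescued emf2, 3.98-fold lower.

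**Figure D3:**
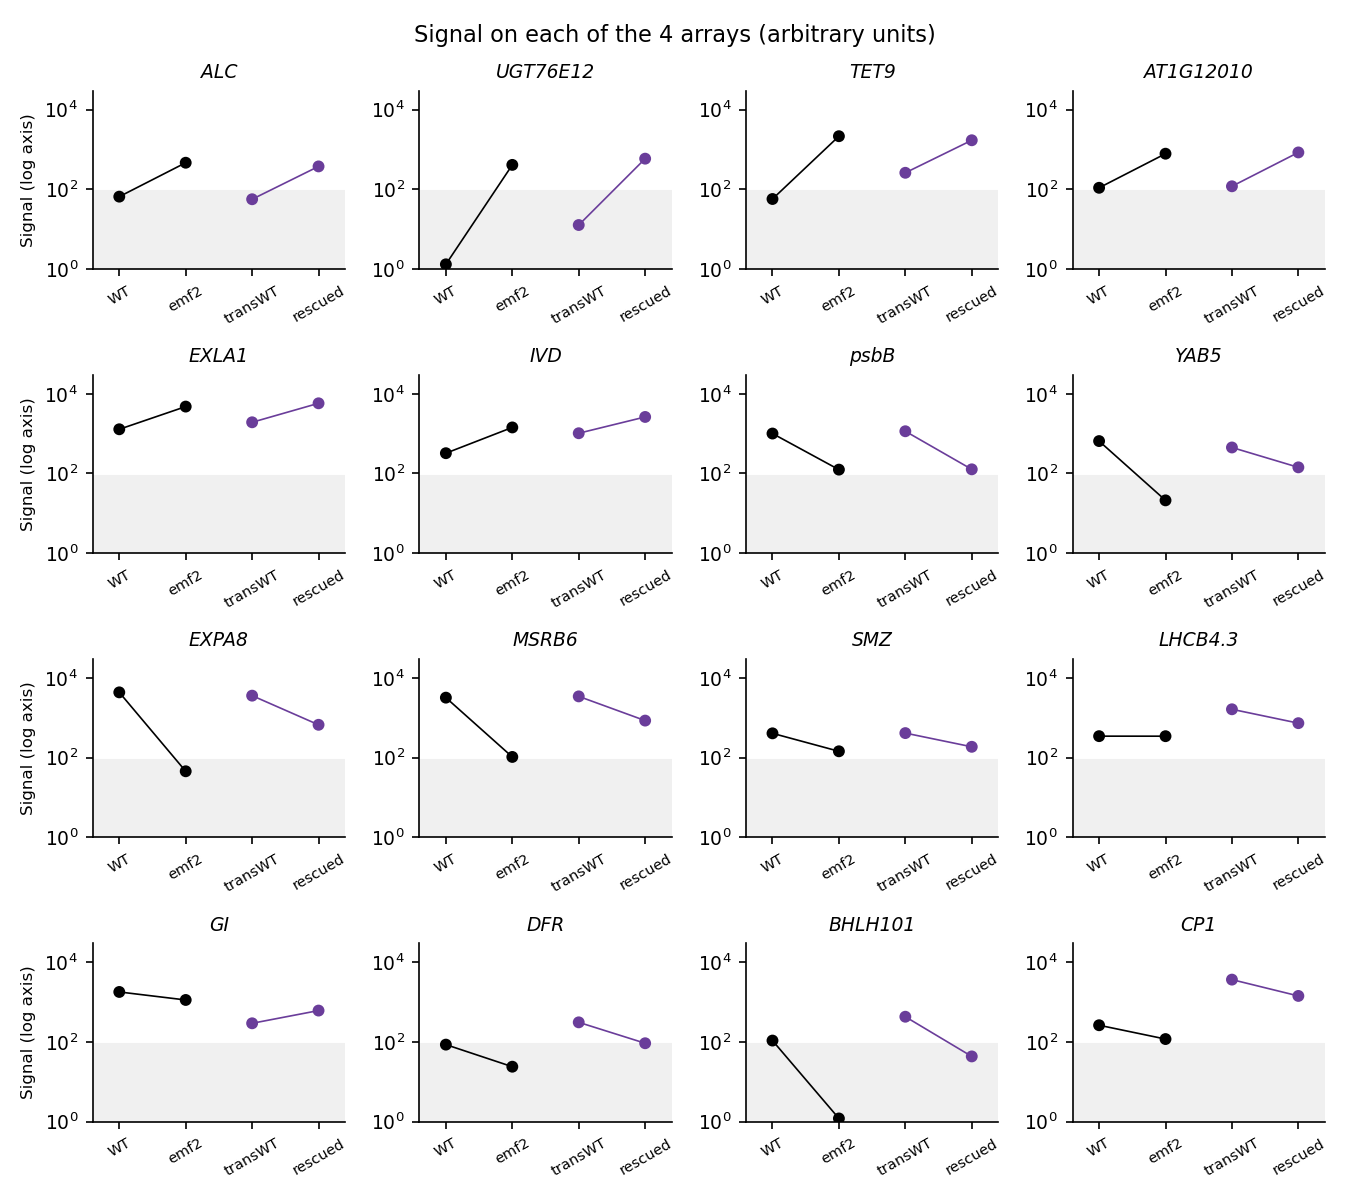
Signal of 16 genes on each of the 4 arrays, in arbitrary units on a log axis with the floor of 87.6 as the top of the grey band; black points are WT and emf2, purple points transWT and rescued emf2. ALC, TET9 and AT1G12010 stand high on both mutant arrays, YAB5, EXPA8 and MSRB6 are low in emf2 and less so in rescued emf2, and GI differs in opposite directions in the 2 pairs.

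Cell wall genes went both ways. Expansins loosen the wall during growth, and of 14 tested, 4 were lower and 2 higher in rescued emf2, beside 3.14% and 2.18% over all named genes. EXPA8 read 4363 in WT, 45.6 in emf2, 3605 in transWT and 669 in rescued emf2. Relative to transWT it was 5.39-fold lower, and without the transgene emf2 was at least 49.8-fold below WT. EXPB3 read 1514 in transWT and 468 in rescued emf2, 3.24-fold lower, and EXPB1 was at least 2.14-fold lower. The EXPB1 call was lost at the higher floor and where both arrays had to be above the floor. The expansin-like EXLA1 lay on the other side, at 1284 in WT, 4764 in emf2, 1923 in transWT and 5762 in rescued emf2, a log2 ratio of 1.58 in the transgenic pair. Its relative EXLA2, chosen after its values were seen, was at 1.07. The root hair expansins EXPA18 and EXPA7, 4.19-fold and 2.67-fold higher in emf2 than in WT, lay within 2-fold here (0.92 and 0.82), and EXPA18 passed it with median scaling (1.01). PYK10, a root beta-glucosidase, was at 0.01, so 0 of 3 root markers passed 2-fold.

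Of 22 tested xyloglucan and cellulose genes 1 was higher and 1 lower, near the 2.18% and 3.14% over all named genes. XTH26, a xyloglucan-modifying enzyme, read 86.8 in transWT and 279 in rescued emf2, at least 3.19-fold higher, a call lost under the same settings as that of EXPB1. GH9C2, of the cellulase family, read 3917 in WT, 499 in emf2, 1112 in transWT and 500 in rescued emf2, 2.23-fold lower. The mutant arrays were alike for this gene, while transWT lay well under WT. None of 7 tubulin genes and none of 3 pectin-modifying genes passed 2-fold. Of 8 tested tetraspanins, membrane proteins that organise surface domains, 1 was higher. TET9 read 56.7 in WT, 2138 in emf2, 258 in transWT and 1691 in rescued emf2, 6.55-fold higher than in transWT, and the next highest, TET2, was at 0.84 (chosen after its values were seen).

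Conjugating and redox enzymes held several of the largest differences of single genes, though few of their families' members passed 2-fold. Of 32 tested UDP-glycosyltransferases, which attach sugars to small molecules, 4 were higher and 2 lower (median 0.15), beside 2.18% and 3.14% over all named genes. UGT76E12 read 1.30 in WT, 407 in emf2, 12.6 in transWT and 584 in rescued emf2, at least 6.66-fold higher in rescued emf2. UGT71C2 was 2.71-fold higher (93.1 and 253), and its call and that of UGT78D1 were lost at the higher floor. UGT72E1, which glycosylates lignin precursors, read 1506 in WT, 274 in emf2, 1249 in transWT and 318 in rescued emf2, 3.92-fold lower. GSTU28, a glutathione transferase, read 94.1 in transWT and 343 in rescued emf2, 3.64-fold higher, alone among 11 tested members of its family, and its call was lost at the higher floor. No cytochrome P450 of 9 tested passed 2-fold, although CYP71B26, at 0.92, did so with median scaling (1.02).

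Methionine sulfoxide reductases repair oxidised methionine, and 2 of them passed 2-fold, in opposite directions. MSRB6 read 3214 in WT, 104 in emf2, 3456 in transWT and 853 in rescued emf2, 4.05-fold lower than in transWT. MSRB9 read 850, 3680, 901 and 2208 in the same order, 2.45-fold higher. AT5G64120, annotated as peroxidase 71, read 7349 in transWT and 2558 in rescued emf2, 2.87-fold lower. These 3 were the genes past 2-fold among 17 tested for peroxidases and redox, 1 higher and 2 lower. Over all named genes, 2.18% were higher and 3.14% lower. TRI, a tropinone reductase, was 3.88-fold higher (280 and 1086). OSM34, an osmotin of the defence list, read 1356 and 2736, 2.02-fold higher, a call that was lost under quantile and cyclic loess scaling. It was the 1 higher gene of 7 tested for defence.

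Flavonoid synthesis had 2 of 6 tested genes lower and 0 higher (median -0.58), beside 3.14% lower over all named genes. Both calls were lost at the higher floor, where the median was -0.13, and at a lower floor, the 25th percentile, it was -0.94. DFR, the reductase at the entry to anthocyanins, read 310 in transWT and 92.7 in rescued emf2, 3.35-fold lower. Without the transgene it lay below the floor on both arrays (85.6 in WT and 23.9 in emf2). UGT78D1, which adds rhamnose to flavonols, read 337 and 127, 2.65-fold lower, with 344 in WT and 154 in emf2. BHLH101, a bHLH factor of the iron deficiency response, read 429 in transWT and 43.3 in rescued emf2, a log2 bound of -2.29 whose call was lost under the same settings as that of ALC. For DFR and BHLH101 the transWT array carried the highest of the 4 signals.

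With the floor used here, lists for amino acid breakdown, senescence, and cold and drought had the highest medians among those with at least 5 tested members. At the higher floor the medians were 0.58 for amino acid breakdown, 0.25 for senescence and 0.00 for cold and drought. The list of branched-chain amino acid, proline and aldehyde breakdown, made up largely of aldehyde dehydrogenases, had 2 of 12 genes higher and 0 lower (median 0.58). Over all named genes, 2.18% were higher and 3.14% lower. ALDH7B4, a stress-related aldehyde dehydrogenase, read 1477 in WT, 5896 in emf2, 1631 in transWT and 4955 in rescued emf2, 3.04-fold higher in the transgenic pair. IVD, an enzyme of leucine breakdown, read 322, 1428, 1021 and 2617 in the same order, 2.56-fold higher. MCCA and MCCB, the subunits of a further enzyme of leucine breakdown and chosen after their values were seen, were at 0.96 and 0.89. Of 9 senescence and proteolysis genes 1 was higher and 1 lower (median 0.59). CP1, a cysteine proteinase, read 263 in WT, 118 in emf2, 3667 in transWT and 1428 in rescued emf2, 2.57-fold lower. SCPL27, a serine carboxypeptidase-like gene, was 2.11-fold higher (105 and 222), a call lost at the higher floor.

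Autophagy genes, mostly of the ATG8 family that coats autophagosomes, had 9 of 11 ratios above 0 but 0 past 2-fold (median 0.25). ATG8F was at 0.39 and APG8H at 0.49. In emf2 over WT the same list had a median of 0.91 and 2 of 11 higher, beside 7.08% over all named genes in that pair. Of 9 tested cold and drought genes 1 was higher (median 0.58), beside 2.18% over all named genes in the transgenic pair. COR27, a cold- and clock-regulated gene, read 146 in WT, 1212 in emf2, 38.1 in transWT and 191 in rescued emf2, at least 2.18-fold higher, a call lost under the same settings as that of ALC. The 2 tested clock genes were split: GI, which links the clock to flowering, read 1797 in WT, 1131 in emf2, 294 in transWT and 613 in rescued emf2. Relative to transWT it was 2.09-fold higher, and in emf2 over WT it stood at -0.67.

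Several lists had no gene past 2-fold in the transgenic pair: cell division (0 of 6), histones (0 of 6), WRKY factors (0 of 6), RALF peptides (0 of 6), beta-glucosidases (0 of 11) and nutrient and sugar transporters (0 of 14). With 2.18% higher and 3.14% lower over all named genes, lists this small need not hold any. PRL, the MCM7 subunit of the replication helicase, was the lowest of the cell division genes at -0.75. The reference genes GAPC2 and PEX4 were at -0.20 and 0.26. IQD32, a calmodulin-binding IQ-domain protein, was 2.04-fold lower (432 and 212), the 1 lower gene of 9 tested, beside 3.14% over all named genes. Its call was lost under the same settings as that of HYH. PAP85, a seed storage protein gene, and AMS, a regulator of anther development, lay below the floor on all 4 arrays.

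**Figure D4:**
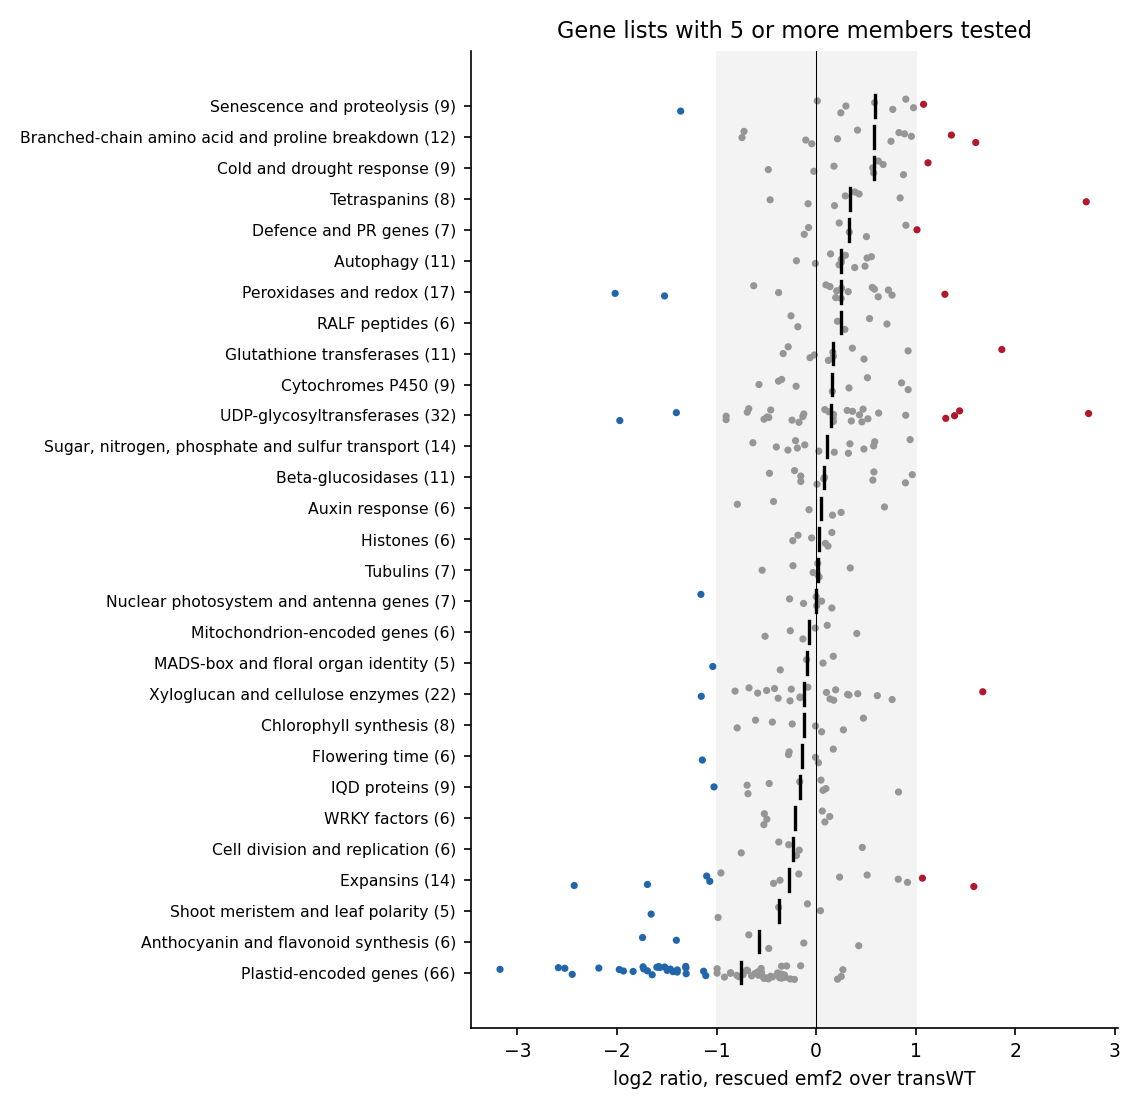
Log2 ratio of rescued emf2 over transWT for the tested members of each gene list with at least 5 of them, the number tested in brackets; red and blue points are at least 2-fold higher and lower, grey points lie within 2-fold (grey band), and black bars are list medians. The plastid-encoded genes have the lowest median, -0.76, and the senescence list the highest, 0.59, with the floor used here.

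Some of the largest differences belonged to loci with no name or role in the annotation used here. AT3G16670 read 927 in transWT and lay below the floor in rescued emf2, at least 10.6-fold lower, against 3208 in WT and 20.3 in emf2. AT5G63180 read 1079 and 187, 5.76-fold lower, with 1837 in WT and 25.9 in emf2. On the other side AT1G12010 read 118 in transWT and 837 in rescued emf2, 7.08-fold higher, with 108 in WT and 777 in emf2. For these loci the mutant arrays lay on the same side of the wild-type arrays with and without the transgene. AT4G22610 was 5.45-fold higher (118 and 643). AT1G20030 was 4.69-fold higher (103 and 485; not called at the higher floor), but equal in WT (1277) and emf2 (1269). At that locus transWT carried the lowest of the 4 signals.

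Rescued emf2 over transWT and emf2 over WT share no array, so their ratios could be compared. Over 13792 probe sets tested in both pairs, the log2 ratios correlated with a Pearson r of 0.66 and a Spearman rho of 0.64, a description over probe sets of 4 arrays. Over the 12145 that were above the floor on each of the 4 arrays, the SD of the log2 ratio was 0.48 in the transgenic pair and 0.80 without the transgene. Of the 748 probe sets called in rescued emf2 over transWT, 492 (65.8%) were at least 2-fold the same way in emf2 over WT. They were 18.2% of the 2709 called there. By direction, 205 were higher in both pairs and 287 lower in both. The difference was the smaller one in the transgenic pair for 420 of the 492.

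Seen from emf2 over WT, the 1076 probe sets higher there had a median log2 ratio of 1.38 in that pair and 0.51 in the transgenic pair, where 86.5% kept the sign. The 1633 lower ones had medians of -1.39 and -0.57, with 87.8% on the same side. Those medians are not on equal terms, because the probe sets were chosen on the first pair. Chosen on rescued emf2 over transWT, the 322 higher probe sets had a median of 1.24 there and 1.44 in emf2 over WT, and the 426 lower ones -1.22 and -1.49. The larger a difference in emf2 over WT, the more often it passed 2-fold in the transgenic pair. Of probe sets 2-fold to 4-fold higher in emf2, 12.7% did so, of those 4-fold to 8-fold higher 50.7%, and of those at least 8-fold higher 57.1%. For lower probe sets the shares were 10.7%, 44.8% and 64.7%.

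**Figure D5:**
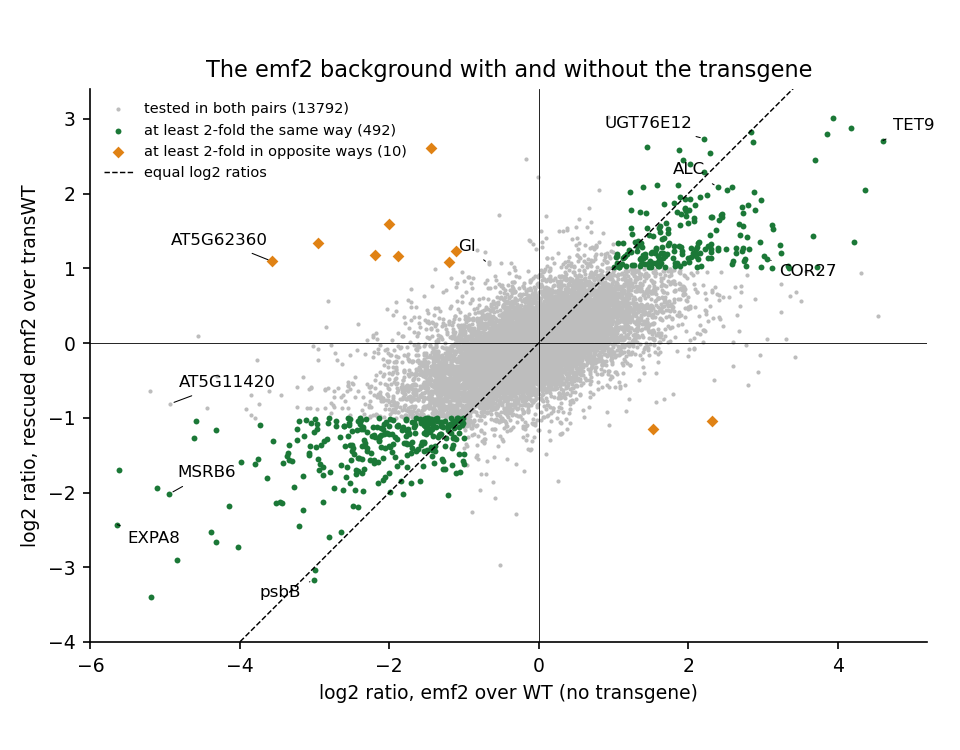
Log2 ratio of rescued emf2 over transWT (y axis) against emf2 over WT (x axis) for the 13792 probe sets tested in both pairs, which share no array; the dashed line marks equal ratios. Green points are the 492 probe sets at least 2-fold the same way, most of them nearer to 0 on the y axis than on the x axis, and orange diamonds the 10 that were at least 2-fold in opposite ways.

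Among 45 named genes at least 8-fold different in emf2 over WT, 15 lay within 2-fold in rescued emf2 over transWT. Examples chosen after their values were seen include AT5G11420, at 4335 in WT, 142 in emf2, 6805 in transWT and 3875 in rescued emf2. Its difference was 30.5-fold without the transgene and 1.76-fold in the transgenic pair. The plastid ribosomal protein genes rpl16 and rps2 were also among them, the latter 8.27-fold lower in emf2 and 1.50-fold lower in rescued emf2. LEA4-5, a late embryogenesis abundant protein gene, read 69.2 in WT, 906 in emf2 and 152 in transWT, with a log2 ratio of 0.62 in the transgenic pair. BGLU45, a beta-glucosidase, read 65.5, 1049, 143 and 280 in the same order. For both genes emf2 carried by far the highest of the 4 signals. The ratios of AT5G44400, AT1G76960, AT5G47330 and AT5G05220 among the 15 are bounds in the transgenic pair, with the dimmer array below the floor. Their differences there may exceed 2-fold.

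In the other direction, 26 named genes were called in rescued emf2 over transWT, 8 higher and 18 lower, with a ratio within 0.25 of 0 on the log2 scale in emf2 over WT. AT1G20030 and LHCB4.3 were among them. Others, chosen after their values were seen, were CHX20, a cation/H+ exchanger, at 98.4 in WT, 45.4 in emf2, 248 in transWT and 102 in rescued emf2, and CML30, a calmodulin-like gene, at 180, 174, 340 and 159 in the same order. WLIM2a, an actin-binding LIM protein gene, read 1894, 2178, 636 and 1332 (log2 1.07 in the transgenic pair). In CHX20 and CML30 the transWT signal was the highest of the 4 and in WLIM2a it was the lowest. For CHX20 and some others of the 26, the emf2 over WT ratio is only a bound, since emf2 or WT lay below the floor. Such a ratio near 0 does not show equal signals.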

How the data were processed

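Total RNA of whole seedlings, 10 µg per array, was hybridised to Affymetrix arrays, per the labels' protocols. The deposited values are intensity, made by the authors with MAS5, a version of which the submitters' processing notes do not name (not given in the sources used here). Each array was rescaled to one 2%-trimmed mean. The floor was the 40th percentile over the 4 arrays (87.6), and log2 ratios of single arrays were taken. MAS5 ratios of dim probe sets are noisy, and a probe set can bind several transcripts. Counts leave out 64 control probe sets. Of 22810 probe sets, 13513 had 1 listed gene, 503 several and 8794 none listed here; 13436 matched current names (TAIR10.1, names only), giving 13355 genes, each read by its brightest probe set. Members, lists and rules were chosen with earlier results of these data known. The 54 lists were matched by symbol or genome, with names of clones and wrong matches left out. Named genes were the 10 highest and 10 lowest ratios, the 6 highest and 6 lowest bounds, up to 4 genes past 2-fold per list (else up to 2), the 6 strongest each way in both pairs, and up to 6 opposite ones. With 1 array per group there was no test. The counting was tested on simulated arrays with less noise than the probe error, and with changes above 2-fold placed in bright probe sets only. It therefore does not bear on calls near the floor or near 2-fold. Python 3.11.15, pandas 2.3.3, and R 4.3.3 with limma 3.58.1 (for quantile and cyclic loess scaling) were used, and 9 alternatives were run.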

Additional observations from a re-analysis of the deposited data

Results flagged for a closer look

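For 7 named genes the difference was at least 2-fold in rescued emf2 over transWT and at least 2-fold the other way in emf2 over WT. Each pair is 1 array against 1 array, so the difference between the pairs was not tested. They are among 10 such probe sets of 13792 tested in both pairs. AT5G62360 read 3713 in WT, 312 in emf2, 345 in transWT and 737 in rescued emf2, with log2 ratios of 1.10 in rescued emf2 over transWT and -3.57 in emf2 over WT. AT1G70820 had ratios of 1.19 and -2.19, AT1G51090 of 1.59 and -2.01, AT5G44440 of 1.34 and -2.95, AT5G17910 of 1.09 and -1.20, and AT5G01075 of 1.24 and -1.11. These 6 loci have no name in the annotation used here, and in 5 of them WT carried the highest of the 4 signals. The serine carboxypeptidase-like gene SCPL31 went the other way, at 68.1 in WT, 439 in emf2, 180 in transWT and 86.9 in rescued emf2, with ratios of -1.04 and 2.32. Both ratios of SCPL31, AT1G51090 and AT5G44440, the first of AT5G17910 and the second of AT5G01075 are bounds (dimmer array below the floor). With the floor at the 60th percentile the calls of AT1G51090, AT5G44440, AT5G01075 and SCPL31 in the transgenic pair were lost. Those of AT1G51090, AT5G44440 and SCPL31 were also lost where both arrays had to be above the floor. AT5G17910, at 82.5 in transWT and 186 in rescued emf2, was not among the genes checked under other settings. The call of SCPL31 was also lost under quantile, median and cyclic loess scaling.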

How the results depend on the processing

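No paired analysis was possible because each group has 1 array, and for the same reason no replicate could be left out. The counts of probe sets at least 2-fold higher, at least 2-fold lower, and the same way in both pairs were 322, 426 and 492. They changed by more than 1.5 times with a floor at the 25th percentile (519, 780 and 743), with it at the 60th (179, 206 and 266), with no floor and a pseudocount of 1 (1661, 2337 and 1470), and with quantile normalization and the 60th percentile together (173, 198 and 255). Changing the floor changes how many probe sets are tested. Quantile normalization gave 352, 371 and 477, cyclic loess 348, 371 and 487, the values as deposited the same counts as above, and testing only those bright enough on both arrays 273, 361 and 344. None of the 62 called genes picked by rule changed sign. The medians of the MADS-box, mitochondrion, nuclear photosystem, tubulin and histone lists changed sign with the scaling. Of the other values recomputed, 1215 stayed within the probe error of 0.35 on the log2 scale and 117 moved further, all of them under another floor. Of those 62, 4 or 5 lost the call under another scaling, 27 with the floor at the 60th percentile, 28 with quantile normalization as well, and 17 where both arrays had to be above the floor. AT3G16670, psbT and UGT76E12 lost it in the last of these alone. Signal over background limits the dim genes, and the number of arrays limits all of them.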
